A study of Homo sapiens with 33 samples.

Results

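Glycolysis, the handling of pyruvate and the citric acid cycle were followed through 43 genes listed by symbol: carriers of glucose and lactate, the glycolytic enzymes with the bisphosphatase that runs against them, the regulators of the pyruvate dehydrogenase complex, and enzymes of the cycle. Of these genes, 39 had a probe set annotated to that symbol alone, among 19775 genes so represented, and the brightest such probe set stood for each. In both fits 38 members passed the filter on low values; ENO2, the neuronal enolase, fell below it. SLC16A1, SLC16A3, SDHB and FH had no single-symbol probe set in the annotation used and were not analysed here.

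Glycolysis splits glucose to pyruvate and feeds lactate, the pentose phosphate branch and, through pyruvate dehydrogenase, the citric acid cycle. Pyruvate dehydrogenase kinases switch that last entry off, and fructose bisphosphatase reverses the committed step of glycolysis. Inflammatory activation of monocytes and macrophages is well known for a rise in glucose uptake and glycolysis, while retinoic acid drives myeloid cells towards differentiation.

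RNA came from THP-1 cells, an established human monocytic leukaemia line, on 33 Affymetrix arrays, each from its own culture well. At 40 h there were 5 wells with 20 nM all-trans-retinoic acid (RA) for 40 h and tumor necrosis factor (TNF, 5 ng/ml) for the last 24 h, 5 wells with RA alone for 40 h, 5 wells with TNF alone for 24 h and 6 vehicle wells with 0.1% ethanol; RA was renewed after 16 h. The time course set 2 wells after 2 h of RA, 2 after 6 h, 3 after 16 h and 2 of those after 40 h against 8 vehicle wells, of which 5 were harvested at 16 h and 3 at 40 h. The titles call those 5 wells a 0 h control, while their treatment protocol gives the 16 h harvest. No vehicle well harvested at 2 h or 6 h was among the samples analysed, so at those times the effects of RA and of harvest time cannot be told apart. All wells are of 1 cell line, so p-values measure the spread between wells, and in bulk RNA fewer expressing cells and less RNA per cell cannot be told apart.

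Levels below are log2 of a probe set's signal over the median signal of its own array, as the authors deposited them, and signals are in array units recovered from those values. A gene was called at an adjusted p under 0.05 from limma, with Benjamini-Hochberg adjustment over all genes tested (12398 at 40 h, 12507 in the time course), and the error given with each log2 fold change is its SE. The arrays fall into array set 1 (12 arrays) and array set 2 (21 arrays) by 2 runs of record numbers in the labels; each 40 h group lies in both sets, and the set was a covariate. The median array signal ran from 18.9 to 45.2 units. Monocytic markers were present, with 6 of 7 measured markers above the filter, and their summed signal was 5643 to 7277 units with RA plus TNF, 3741 to 5179 with RA, 3315 to 4952 with TNF and 3110 to 4757 with vehicle. Of the lymphocyte markers CD79A and NKG7 passed, of the erythroid ones HBB and GATA1, and of the epithelial and fibroblast ones KRT8, COL1A1 and DCN; the part of any of these in the members' differences was not tested. DHRS3, a retinoid-induced reductase, rose with RA by 4.25 ± 0.30, and TNFAIP3, an NF-kB target, rose with TNF by 3.69 ± 0.17 on the log2 scale.

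Across 9 comparisons, 14 of the 38 tested members were called at least once and 24 in none, against 31.7% of all genes tested in both fits called at least once. The called members were SLC2A3 at glucose entry, the hexokinases HK1, HK2 and HK3, PFKP, PFKFB3, PFKFB4 and FBP1 around the fructose bisphosphate step, PKM, the kinases PDK3 and PDK4, and IDH1, IDH3A and OGDH of the cycle and its linked enzymes. Genes of the middle of glycolysis and of lactate formation stayed uncalled, among them GAPDH, aldolase A (ALDOA) and lactate dehydrogenase A (LDHA). Their mean signals over all arrays were 16179, 9533 and 8165 units. Probe sets differ, so signals do not rank the genes.

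Sequences upstream of an annotated start are shown for 4 members. FBP1 had the largest rise of the members under RA, HK1 and HK2 are hexokinases that followed different treatments, and LDHA is of the uncalled core. Each sequence is the 250 bases before an annotated RefSeq start on GRCh38.p14, read on the gene's strand. Capitals mark AGGTCA, the half-site of retinoid and other nuclear receptors, or ACGTG, the core of the hypoxia response element, on either strand, with overlapping matches on both strands counted once each.
FBP1 (chr9:94639519-94639768, minus strand, 1 annotated start): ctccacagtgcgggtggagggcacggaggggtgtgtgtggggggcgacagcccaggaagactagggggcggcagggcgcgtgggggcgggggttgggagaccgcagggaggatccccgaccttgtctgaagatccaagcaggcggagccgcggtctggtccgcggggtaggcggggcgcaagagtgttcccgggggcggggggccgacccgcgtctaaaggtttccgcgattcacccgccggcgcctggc
HK1 (chr10:69269750-69269999, plus strand, the first of 7 windows): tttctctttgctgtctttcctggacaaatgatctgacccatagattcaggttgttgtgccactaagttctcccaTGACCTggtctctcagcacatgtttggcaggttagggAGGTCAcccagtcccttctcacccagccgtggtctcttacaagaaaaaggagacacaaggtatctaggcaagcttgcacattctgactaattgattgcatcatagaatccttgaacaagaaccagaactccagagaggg
HK2 (chr2:74834920-74835169, plus strand, the second of 2 windows): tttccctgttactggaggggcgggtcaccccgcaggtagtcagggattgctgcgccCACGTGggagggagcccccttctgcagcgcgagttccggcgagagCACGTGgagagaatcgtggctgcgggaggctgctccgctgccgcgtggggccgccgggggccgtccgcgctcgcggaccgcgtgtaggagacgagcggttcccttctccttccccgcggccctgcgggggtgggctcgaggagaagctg
LDHA (chr11:18394313-18394562, plus strand, the first of 2 windows): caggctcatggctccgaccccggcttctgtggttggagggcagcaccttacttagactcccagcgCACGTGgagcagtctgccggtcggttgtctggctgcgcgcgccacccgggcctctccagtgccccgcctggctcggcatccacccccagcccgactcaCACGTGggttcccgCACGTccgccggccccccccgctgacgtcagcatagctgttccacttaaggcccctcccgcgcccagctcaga
The HK1 window held AGGTCA 2 times, and 3 of its 7 windows held it; the first and the second start 5 bases apart and hold the same 2 matches. The HK2 window held ACGTG 4 times and the LDHA window 5 times, counting both strands. The other HK2 window held ACGTG 2 times, and the other LDHA window held no match. For HK1, HK2 and LDHA the window shown is thus the one with the most matches, tied with the second window in HK1. The FBP1 window held neither AGGTCA nor ACGTG, nor the NF-kB motif (GGGA, any 2 bases, TTCC). It was the 1 window held for FBP1, whose start need not be the only one annotated. The window lies inside the span of the gene, chr9:94603133-94640263, so sequence before the outer end of that span was not searched. Of 35116 windows of this length, 12.1% held AGGTCA, 18.5% held ACGTG and 1.4% the NF-kB motif; among 71 windows of 39 members the counts were 9, 21 and 0. These 39 are not the 39 with a probe set: they include SLC16A3, SDHB and FH, and OGDH, PDP1, SLC16A1 and SLC2A3 had no window. HK3 and PDK4, called members that are not shown, had 1 window each, with no match of these motifs. Which start THP-1 cells use was not tested. A match is a description of letters and shows no binding.

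With RA alone for 40 h, 2 of 38 tested members rose and none fell, against 4.18% of all genes called (2.8% higher, 1.38% lower). The split of all genes, 347 higher and 171 lower as deposited, was 512 and 550 with quantile normalisation. The members called were FBP1, the fructose bisphosphatase of gluconeogenesis, and HK3, a hexokinase prominent in myeloid cells. The median log2 fold change of the members was 0.01, beside a median of 0.00 over all genes tested. No carrier, no pyruvate regulator and no cycle enzyme passed the test.

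FBP1 (chr9:94603133-94640263) had levels of 4.82, 4.90, 5.36, 5.46 and 5.92 in the RA wells. The 6 vehicle wells had a lowest level of 3.06, a median of 3.43 and a highest of 3.93. Every RA well lay above every vehicle well, and the mean signal was 1310 ± 140 units with RA (SD, n = 5) and 362 ± 27.8 with vehicle (SD, n = 6). The estimate on the log2 scale was 1.90 ± 0.17 (3.74-fold, adjusted p = 1.1e-10), with 1.79 in array set 1 and 2.02 in array set 2. Leaving out any 1 of the 11 arrays moved it between 1.82 and 1.96.

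HK3 had levels of 0.52, 1.56 and 2.39 in the RA wells of array set 1 and 3.43 and 3.50 in those of set 2. Vehicle wells had levels of -0.75, -0.43 and -0.34 in set 1 and 2.03, 2.15 and 2.33 in set 2. The pooled groups overlapped, but within each set all RA wells lay above all vehicle wells. The vehicle levels of set 1 are below the array median, where the size of a change is uncertain. In the fit the log2 fold change was 1.68 ± 0.50 (adjusted p = 0.0472), and the call was lost when any array other than RA replicate 3 was left out. HK2, the inducible hexokinase, had the lowest estimate of the members with RA, -0.77 ± 0.29, which missed the threshold (adjusted p = 0.168).

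**Figure D1:**
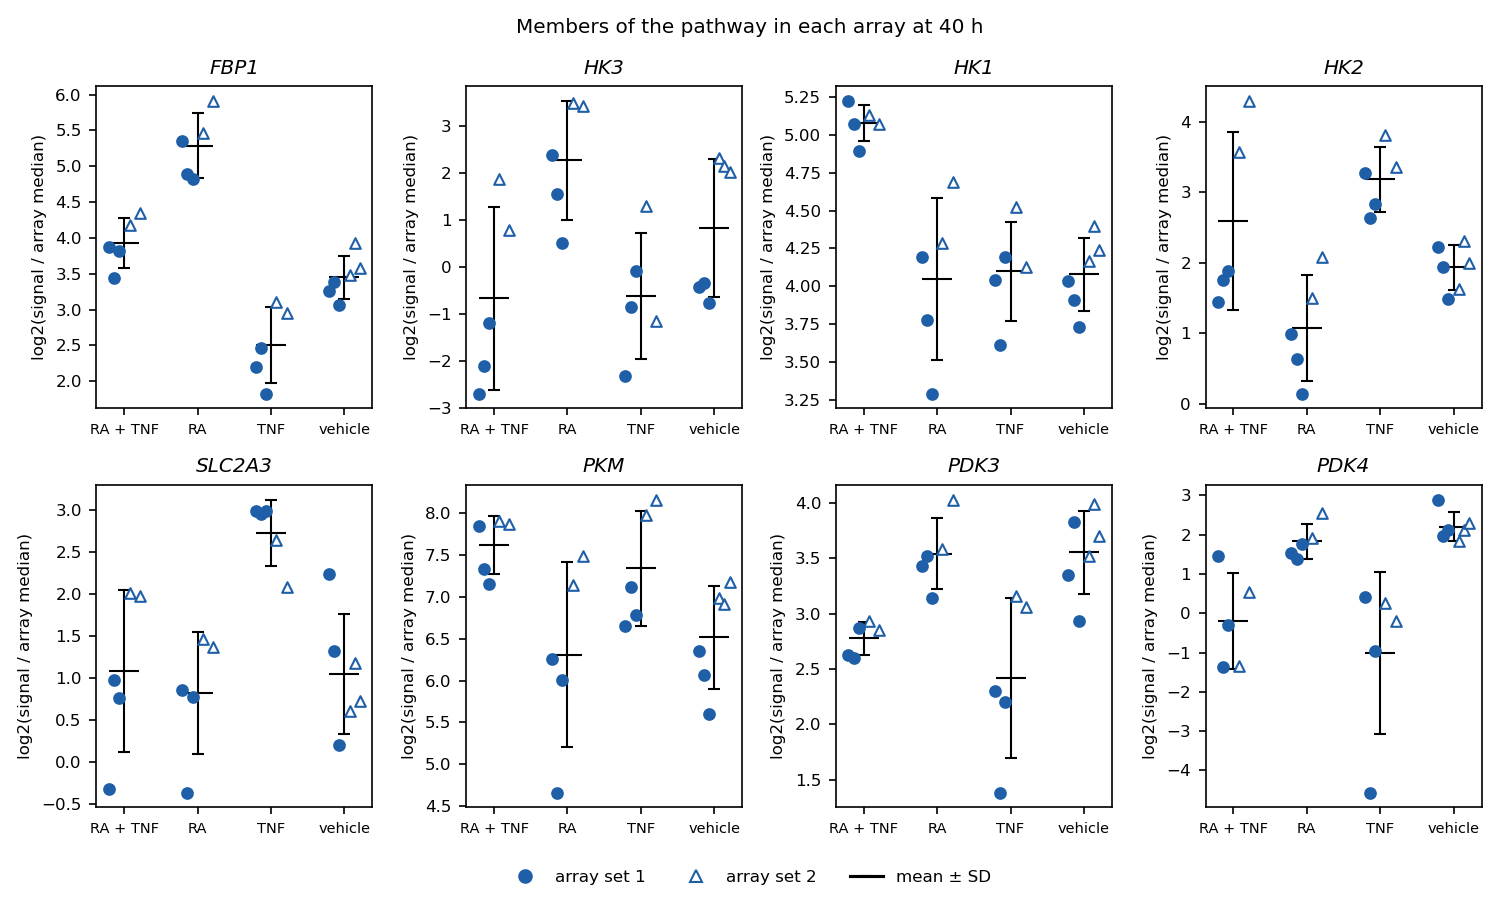
Level of 8 members in each 40 h array, as log2 of signal over the array median (vertical axis), in wells with RA plus TNF, RA, TNF and vehicle (horizontal axis); filled circles are array set 1, open triangles array set 2, and bars are mean ± SD. FBP1 was highest with RA (mean 5.29), HK1 with RA plus TNF (mean 5.08), and PDK4 lay at means of -0.20 with RA plus TNF and -1.01 with TNF, against 2.20 with vehicle.

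With TNF alone, 6 members rose and 3 fell, together 9 of 38, against 11.3% of all genes called (6.73% higher, 4.6% lower). With quantile normalisation 8 members were higher and 4 lower, beside 1140 and 1403 of all genes, which were 834 and 570 as deposited. The rises were SLC2A3, HK2, PFKP, PKM, IDH3A and OGDH, which stand at glucose uptake, at the hexokinase, phosphofructokinase and last steps of glycolysis and in the citric acid cycle. The falls were PDK3 and PDK4, kinases that inactivate pyruvate dehydrogenase, and FBP1. The median of the members was 0.07, beside -0.01 over all genes.

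At uptake, SLC2A3, the high-affinity glucose transporter GLUT3, had levels of 2.96, 2.99 and 2.99 in the TNF wells of set 1 and 2.08 and 2.64 in those of set 2. Vehicle wells had a lowest level of 0.20, a median of 0.95 and a highest of 2.24. Only the highest vehicle well reached into the TNF range, and within each array set the groups did not overlap. On the log2 scale the difference was 1.72 ± 0.38 (3.29-fold, adjusted p = 0.00134), and the 2 other probe sets of the gene gave 1.24 and 2.43. SLC2A1, the widespread transporter GLUT1, gave -0.19 ± 0.20 (adjusted p = 0.646).

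At the first step, HK2 had levels of 2.64, 2.83, 3.27, 3.36 and 3.81 in the TNF wells. The vehicle wells had a lowest level of 1.49, a median of 1.97 and a highest of 2.31. All TNF wells exceeded all vehicle wells. The log2 fold change was 1.35 ± 0.29 (2.54-fold, adjusted p = 0.0011), and the 2 dimmer probe sets gave 1.18 and 2.15. HK1, the constitutive hexokinase, gave 0.06 ± 0.17 (adjusted p = 0.898) and HK3 gave -1.22 ± 0.50 (adjusted p = 0.119).

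FBP1 fell with TNF. Its levels were 1.83, 2.19, 2.46, 2.96 and 3.11 in the TNF wells, against the vehicle range of 3.06 to 3.93. The groups touched at 1 TNF well of array set 2 and were apart within each set. The estimate on the log2 scale was -0.88 ± 0.17 (adjusted p = 2.12e-04), and mean signals were 193 ± 47.2 units with TNF (SD, n = 5) and 362 ± 27.8 with vehicle (SD, n = 6). PFKP, the platelet-type phosphofructokinase of the committed step, had levels of 5.56, 5.69, 5.81, 6.14 and 6.26 with TNF, against a lowest of 5.14, a median of 5.49 and a highest of 6.00 with vehicle. The groups overlapped as pooled and were apart within each set. It rose by 0.47 ± 0.14 (adjusted p = 0.0178), a call that was lost without TNF replicate 1 or 5 or vehicle replicate 4 or 6. PFKL and PFKM, its liver and muscle forms, gave 0.10 and 0.26 with no call.

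In lower glycolysis, PKM, pyruvate kinase of the last step, had levels of 6.66, 6.79 and 7.12 in TNF wells of set 1 and 7.98 and 8.16 in those of set 2. Vehicle wells had 5.60, 6.07 and 6.35 in set 1 and 6.92, 6.98 and 7.17 in set 2. Within each set TNF wells lay above vehicle wells, though set 2 ran higher as a whole. In the fit the log2 fold change was 0.93 ± 0.22 (1.91-fold, adjusted p = 0.00263), with 0.84 in the second probe set. ENO1, the main enolase, gave 0.40 ± 0.15 with no overlap between the groups, but missed the threshold (adjusted p = 0.0703). GAPDH, PGK1, PGAM1, LDHA and LDHB, the core of lower glycolysis and lactate formation, gave estimates of at most 0.22 in size in any of the 4 contrasts at 40 h, and none was called.

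PDK4 had levels of -4.57, -0.96, -0.21, 0.27 and 0.41 in the TNF wells. The vehicle wells had a lowest level of 1.84, a median of 2.12 and a highest of 2.89. All TNF wells lay below all vehicle wells, and 3 of the 5 lay below the median of their own array. On the log2 scale the difference was -3.17 ± 0.58 (adjusted p = 1.49e-04), and mean signals were 24.6 ± 16.3 units with TNF (SD, n = 5) and 161 ± 60.7 with vehicle (SD, n = 6). The size of the fall is uncertain at such low signals: it was -2.33 without TNF replicate 2, the lowest array, and -2.59 with signals raised to a floor of 16 units.

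PDK3 had levels of 1.38, 2.20, 2.30, 3.06 and 3.16 in the TNF wells. The vehicle wells had a lowest level of 2.93, a median of 3.61 and a highest of 3.98. The pooled groups overlapped, while each array set kept them apart. The log2 fold change was -1.08 ± 0.20 (adjusted p = 2.13e-04). Its 4 dimmer probe sets gave -1.43, -1.15, -1.14 and -0.03, so they disagreed on the size, and the call was lost when all probe sets of the gene were averaged (adjusted p = 0.0748). PDK1 and PDK2, the other kinases of the complex, gave -0.15 ± 0.27 and -0.76 ± 0.46 with no call. PDHA1, the subunit that they phosphorylate, gave 0.25 ± 0.17 (adjusted p = 0.42), and PDP1, the opposing phosphatase, gave -0.45 ± 0.20 (adjusted p = 0.155).

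In the cycle, IDH3A, the catalytic subunit of the NAD-dependent isocitrate dehydrogenase, had levels of 3.36, 3.80, 4.04, 4.75 and 4.83 with TNF, against a lowest of 2.80, a median of 3.60 and a highest of 4.03 with vehicle. The groups overlapped, in array set 1 as well. The estimate on the log2 scale was 0.67 ± 0.19 (adjusted p = 0.0176), lost without TNF replicate 3 or 5 or vehicle replicate 4. OGDH, the oxoglutarate dehydrogenase of the next oxidation, had levels of 2.24, 2.77, 2.81, 3.44 and 3.45 with TNF, against a lowest of 1.95, a median of 2.33 and a highest of 2.78 with vehicle, so the groups overlapped. It gave 0.67 ± 0.22 (adjusted p = 0.0464), and leaving out any 1 of 9 of the 11 arrays lost the call. The other 7 tested cycle genes lay between -0.08 and 0.16 with no call. These were CS, IDH1, IDH2, SUCLG1, SDHA, MDH1 and MDH2. Averaging all probe sets of each gene, in place of the brightest, ended the TNF calls of PFKP (adjusted p = 0.622), IDH3A (0.393) and OGDH (0.318), as of PDK3.

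**Figure D2:**
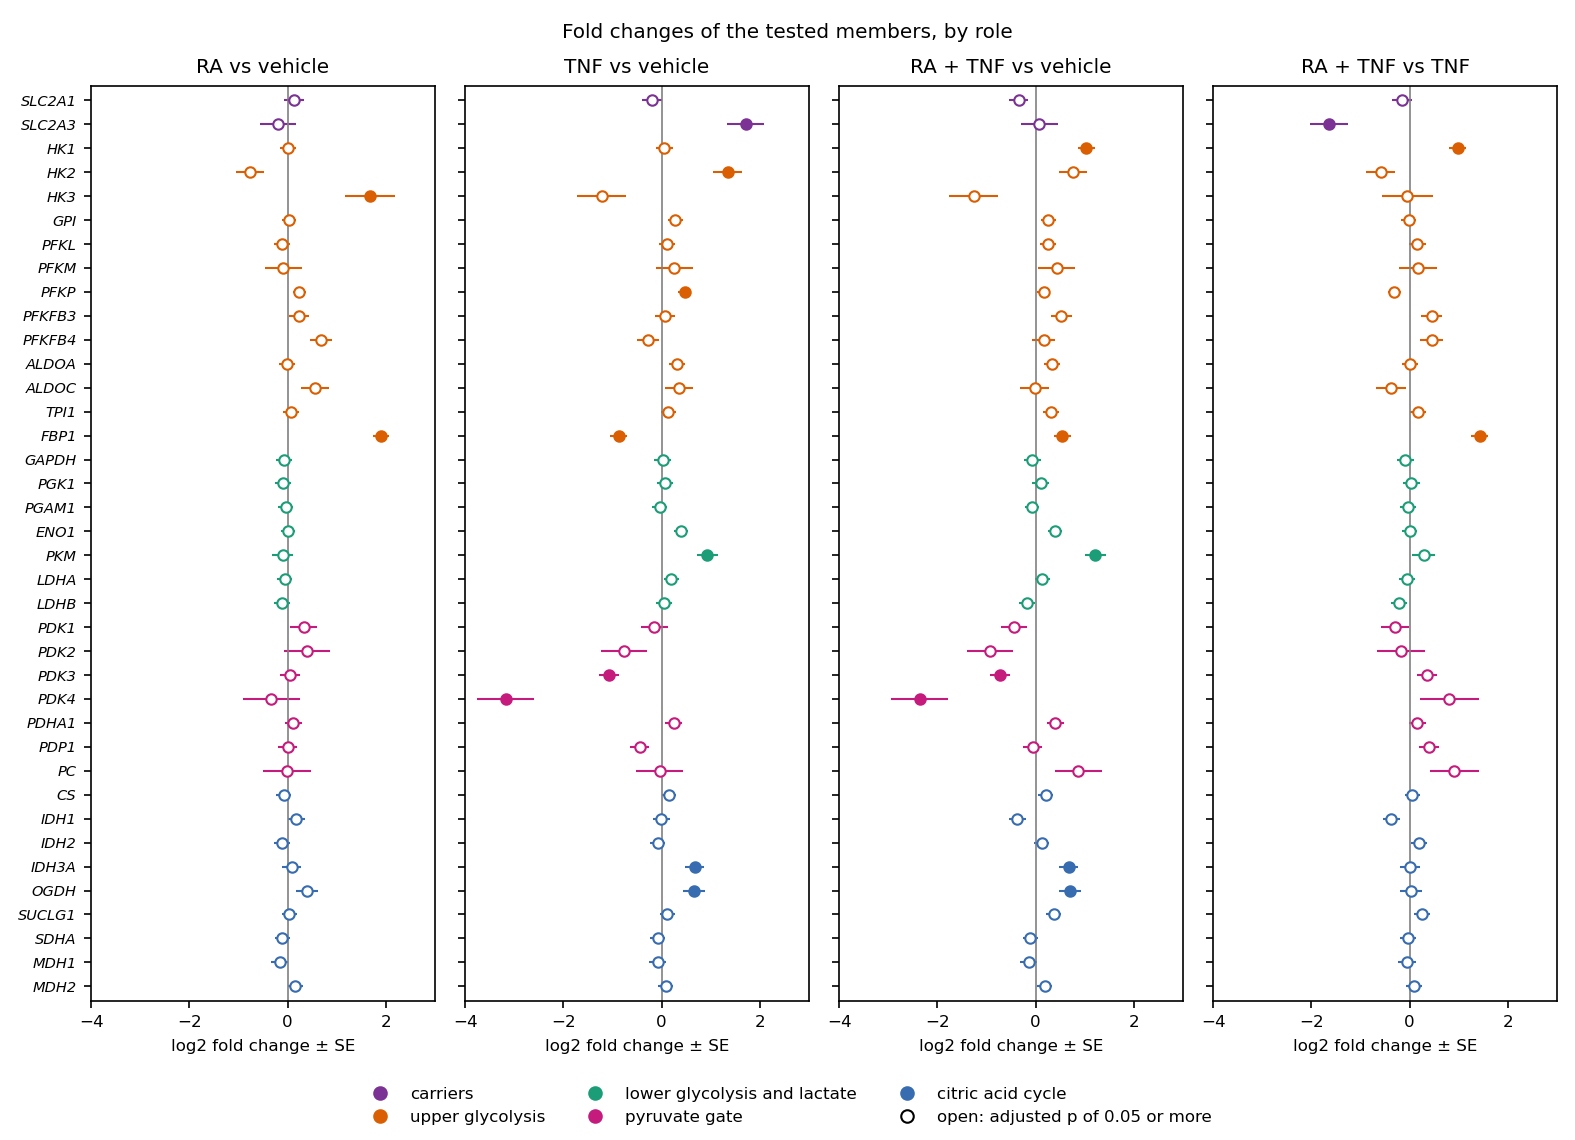
Log2 fold change ± SE (horizontal axis) of the 38 tested members, 1 per row and coloured by role, in 4 comparisons at 40 h; filled points had an adjusted p under 0.05. Called points belong to SLC2A3, HK1, HK2, HK3, PFKP, FBP1, PKM, PDK3, PDK4, IDH3A and OGDH, while GAPDH, PGK1, PGAM1, LDHA and LDHB lie within 0.22 of 0 in each panel.

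With RA plus TNF against vehicle, 5 members rose and 2 fell, 7 of 38, against 19.1% of all genes called (11.7% higher, 7.45% lower). With quantile normalisation 7 members were higher and 7 lower, beside 1511 and 1883 of all genes, which were 1450 and 924 as deposited; with recovered signals 6 members were higher and 4 lower. The rises as deposited were HK1, FBP1, PKM, IDH3A and OGDH, and the falls PDK3 and PDK4. The median of the members was 0.16, beside 0.05 over all genes. Controls were shared with the comparisons of each single agent, so the values stand side by side without a further reading.

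HK1 had levels of 4.89, 5.07, 5.07, 5.13 and 5.22 in the RA plus TNF wells. With RA alone its levels were 3.29, 3.78, 4.20, 4.29 and 4.69, and with TNF alone they were 3.61, 4.04, 4.13, 4.19 and 4.52. The vehicle wells had a lowest level of 3.73, a median of 4.10 and a highest of 4.40. All wells with both agents lay above every well of the other groups. In the fit the log2 fold change was 1.04 ± 0.17 against vehicle (2.05-fold, adjusted p = 1.08e-05), while RA alone gave 0.01 ± 0.17 and TNF alone 0.06 ± 0.17. Mean signals were 1069 ± 115 units with both agents, 562 ± 106 with RA and 568 ± 74.1 with TNF (SD, n = 5 each), and 561 ± 41.5 with vehicle (SD, n = 6).

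FBP1 had levels of 3.45, 3.82, 3.87, 4.18 and 4.35 with both agents, which overlapped the vehicle range of 3.06 to 3.93. It rose by 0.55 ± 0.17 (adjusted p = 0.0154). PKM had levels of 7.16, 7.34, 7.84, 7.87 and 7.90 with both agents and rose by 1.22 ± 0.22 (2.32-fold, adjusted p = 5.09e-05). PDK4 had levels of -1.38, -1.34, -0.29, 0.55 and 1.45 with both agents, all below every vehicle well, and fell by 2.36 on the log2 scale (SE 0.58, adjusted p = 0.00264). PDK3 had levels of 2.60 to 2.93 and fell by 0.72 (SE 0.20, adjusted p = 0.0089), again with no call when its probe sets were averaged (adjusted p = 0.556). IDH3A rose by 0.67 ± 0.19 (adjusted p = 0.0109) and OGDH by 0.69 ± 0.22 (adjusted p = 0.0245), with levels of 2.53 to 3.45 that overlapped the vehicle wells at 1.95 to 2.78. The OGDH call was lost without RA plus TNF replicate 1 or 4 or vehicle replicate 5. Averaging the probe sets also ended the calls of PDK4 (adjusted p = 0.23), IDH3A (0.0547) and OGDH (0.127) under both agents.

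HK2 depended on the array set under both agents. Its levels were 1.44, 1.75 and 1.89 in set 1, overlapping the vehicle range there of 1.49 to 2.22, and 3.57 and 4.30 in set 2, above the vehicle range there of 1.63 to 2.31. On the log2 scale the difference was -0.19 in set 1 and 1.95 in set 2, and 0.76 ± 0.29 over both, which missed the threshold (adjusted p = 0.0629). SLC2A3 likewise gave -0.78 in set 1 and 1.16 in set 2, and 0.07 ± 0.38 over both (adjusted p = 0.929). ENO2, which was below the filter and not tested, had mean signals of 42.0 ± 21.6 units with both agents (SD, n = 5) and 22.0 ± 21.7 with vehicle (SD, n = 6).

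With RA plus TNF against TNF alone, 2 members rose and 1 fell, against 7.31% of all genes called (4.6% higher, 2.71% lower). With quantile normalisation 2 members were higher and 4 lower, beside 807 and 763 of all genes, which were 570 and 336 as deposited; with arrays centred on the tested genes and with recovered signals the members split as 2 higher and 3 lower. FBP1 rose by 1.42 ± 0.17 (2.68-fold, adjusted p = 1.21e-07), with every well above every TNF well and mean signals of 485 ± 66.7 units with both agents and 193 ± 47.2 with TNF (SD, n = 5 each). HK1 rose by 0.98 ± 0.18 (1.97-fold, adjusted p = 1.44e-04), again with no overlap. SLC2A3 had levels of -0.32, 0.77 and 0.98 with both agents in set 1 and 1.98 and 2.02 in set 2, all below the TNF wells at 2.08 to 2.99. It fell by 1.65 (SE 0.39, adjusted p = 0.00467), with -2.50 in set 1 and -0.36 in set 2, and the call was lost when its probe sets were averaged (adjusted p = 0.0936).

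The interaction, which asks whether RA acted differently in the presence of TNF, was called for 0 members by limma, against 0.427% of all genes. At an unadjusted p under 0.05 there were 6 members: SLC2A3, HK1, HK3, PFKP, ALDOC and IDH1. HK1 came nearest, with 0.97 ± 0.24 (adjusted p = 0.063). Under 3 other scalings of the arrays HK1 and PFKP were called: for HK1 the adjusted p was 0.00621 with quantile normalisation, 0.00602 with arrays centred on the tested genes and 0.00325 with recovered signals. For FBP1 the interaction was -0.48 with no call, and for SLC2A3 it was -1.45 ± 0.54 (adjusted p = 0.404).

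In the RA time course, FBP1 was called at every time. Its level was 4.91 and 5.08 after 2 h, 5.82 and 6.21 after 6 h, 5.38, 5.60 and 5.62 after 16 h, and 5.46 and 5.92 after 40 h. The 8 vehicle wells of the time course had a lowest level of 3.30, a median of 3.76 and a highest of 4.59. All RA wells lay above all vehicle wells at each time. The log2 fold changes were 1.12 ± 0.25 at 2 h (adjusted p = 0.0141), 2.14 ± 0.25 at 6 h (3.29e-07), 1.66 ± 0.21 at 16 h (2.28e-06) and 1.81 ± 0.25 at 40 h (4.47e-06).

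The median change of all tested genes was not 0 in these fits: after 2, 6, 16 and 40 h of RA it stood at 0.31, 0.38, -0.17 and 0.15. Relative to it FBP1 changed by 0.81, 1.76, 1.82 and 1.66. The 2 h and 6 h arrays also had low medians, with means of 23.3 ± 1.63 and 22.2 ± 4.74 units (SD, n = 2 each) against 29.4 ± 3.46 in vehicle (SD, n = 8), and lower log2 ratios of 3' to 5' GAPDH probes, 0.13 ± 0.06 and 0.16 ± 0.15 against 0.44 ± 0.25. The part of these differences in the early results was not tested. The 2 h call of FBP1 was lost without either 2 h well.

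**Figure D3:**
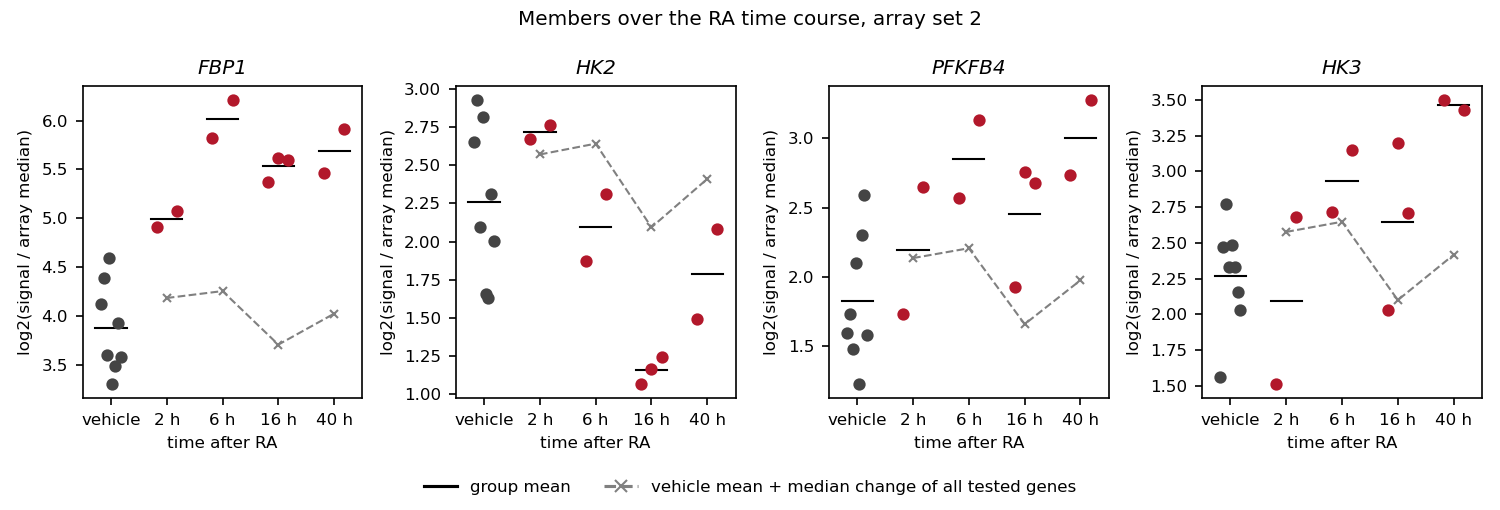
Level of FBP1, HK2, PFKFB4 and HK3, as log2 of signal over the array median (vertical axis), in vehicle wells and after 2, 6, 16 and 40 h of RA in array set 2 (horizontal axis, not to scale); points are wells, bars group means, and the dashed line is the vehicle mean plus the median change of all tested genes. FBP1 stands above the dashed line at each time, and HK2 is lowest at 16 h, with a mean of 1.16 against 2.26 in vehicle.

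At 2 h, FBP1 was the 1 called member of 38, against 0.872% of all genes called (0.848% higher, 0.024% lower). That split, 106 higher and 3 lower as deposited, was 79 and 27 with quantile normalisation. At 6 h, 5 members rose, against 8.44% of all genes called (8.27% higher, 0.176% lower). The split of all genes was 1034 higher and 22 lower as deposited, but 306 and 169 with quantile normalisation, 315 and 156 with arrays centred on the tested genes and 339 and 158 with recovered signals. Beside FBP1 the members called were HK1 (0.71 ± 0.22, adjusted p = 0.0436), PFKFB3 (0.85 ± 0.27, adjusted p = 0.0424), PFKFB4 (1.02 ± 0.32, adjusted p = 0.0425) and IDH1 (0.79 ± 0.24, adjusted p = 0.0392). PFKFB3 and PFKFB4 set the level of the fructose bisphosphate that activates phosphofructokinase, and IDH1 is the cytosolic isocitrate dehydrogenase. The levels at 6 h were 4.72 and 5.27 for HK1, against 3.88 to 4.96 in the 8 vehicle wells. For PFKFB3 they were 3.56 and 3.84 against 2.12 to 3.26, for PFKFB4 2.57 and 3.13 against 1.23 to 2.59, and for IDH1 7.03 and 7.22 against 5.62 to 6.81. PFKFB3 and IDH1 lay above all vehicle wells, while HK1 and PFKFB4 overlapped them. Called or not, 12 of the 38 tested members did not overlap the vehicle wells at 6 h, and 9 did not at 2 h. The share of all genes without overlap was not computed. Relative to the median of all genes these 4 changed by 0.33 to 0.64, and under each of the 3 other scalings FBP1 was the 1 member called at 6 h.

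At 16 h, FBP1 rose and HK2 fell, against 7% of all genes called (2.36% higher, 4.64% lower). The split of all genes, 295 higher and 580 lower as deposited, was 735 and 824 with quantile normalisation, and under each of the 3 other scalings 2 members were higher and 1 lower. HK2 had levels of 1.07, 1.16 and 1.24 after 16 h of RA. The vehicle wells had a lowest level of 1.63, a median of 2.20 and a highest of 2.93, so the groups did not overlap. The log2 fold change was -1.10 ± 0.26 (adjusted p = 0.00805), and the call was lost without RA 16 h replicate 1 or when probe sets were averaged (adjusted p = 0.198). The other times gave 0.46 at 2 h, -0.17 at 6 h and -0.47 at 40 h with no call. The differences between the times were not tested.

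At 40 h in the time course, 3 members rose and none fell, against 5.18% of all genes called (4.5% higher, 0.68% lower). That split, 563 higher and 85 lower as deposited, was 688 and 638 with quantile normalisation, under which 3 members were higher and 1 lower. Beside FBP1 these were HK3, with levels of 3.43 and 3.50 against 1.56 to 2.78 in vehicle wells (1.20 ± 0.30, adjusted p = 0.0115), and PFKFB4, with 2.74 and 3.28 against 1.23 to 2.59 (1.18 ± 0.32, adjusted p = 0.0214). Neither overlapped the vehicle wells, and both calls were lost without either RA well, that of PFKFB4 also when probe sets were averaged (adjusted p = 0.539). These 2 RA wells and 3 of the vehicle wells also entered the 40 h comparison above, so the values of HK3 and FBP1 are not from a separate experiment.

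The other genes of the pathway were read from a list of 49, of which 35 were tested at 40 h and 38 in the time course. With RA, 2 rose and 1 fell, against 4.18% of all genes called. With TNF, 4 rose and 2 fell, against 11.3%. With RA plus TNF, 10 rose and 2 fell against vehicle, where 19.1% of all genes were called, and 2 rose and 1 fell against TNF alone, where 7.31% were. SLC2A5, the fructose transporter GLUT5, rose with RA by 2.46 ± 0.19 (adjusted p = 5.73e-12) and already by 1.55 ± 0.20 at 2 h (adjusted p = 8.09e-06). SLC2A6, the sugar transporter GLUT6, rose with TNF by 3.44 ± 0.21 (adjusted p = 1.58e-14) and with RA plus TNF by 3.91 ± 0.21 (adjusted p = 1.39e-16). ME1, the cytosolic malic enzyme, fell with RA by 0.85 (SE 0.20, adjusted p = 0.00696) and rose with TNF by 1.59 ± 0.20 (adjusted p = 2.64e-07). The RA estimate of ME1 was -1.365 in array set 1 but -0.175 in set 2, and that of TNF was 1.535 and 1.578. In both comparisons the pooled groups overlapped. MPC1, a subunit of the mitochondrial pyruvate carrier, rose with TNF by 1.09 ± 0.16 (adjusted p = 7.42e-06), with all wells above all vehicle wells. Under RA plus TNF, the smallest adjusted p-values after SLC2A6 were those of SLC2A5 (1.73 ± 0.19, 4.08e-09), ME1 (1.78 ± 0.20, 1.02e-08) and MPC1 (0.98 ± 0.16, 1.91e-05), all higher.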

How the data were processed

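Total RNA of 33 THP-1 wells was hybridised to 1 array each. The authors deposited log2 values in which every array has a median of 0, so that a value is relative to its own array, made from GCOS signals, per the submitters' processing notes; the GCOS version and settings are not given in the sources used here, and the centring was read from the values. Powers of 2 above each array's lowest value were multiples of 0.1 units, within 0.006 units, for 100% of signals under 8 units, which allowed the signals to be recovered; between 13 and 2964 values per array equalled that floor of 1 unit. Of 54675 probe sets, 62 controls were left out; 41091 had a single symbol in the platform annotation, 1801 had several and were not used, and the brightest per gene was kept. Genes whose mean linear value was under that of the middle probe set (0.882 at 40 h and 0.891 in the time course, as a multiple of the array median) were removed.

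Values entered limma 3.58.1 (R 4.3.3) as deposited, with lmFit and eBayes with an intensity trend. The 21 arrays of the 40 h groups were fitted with array set as a covariate, and 17 arrays of array set 2 for the time course. Members called in any comparison were described with their levels, larger changes first; from other lists genes were named by smallest adjusted p, at most 4 per comparison, and further genes to complete a count. The members and lists were chosen with earlier results of these data known. Alternatives covered 3 other scalings, the filter, the trend, the covariate, the array sets apart, the mean of all probe sets, the vehicle wells used, single arrays left out and a replicate block. The number of arrays limits the precision. Promoter windows and gene positions are from RefSeq tables on GRCh38.p14, and figures were drawn with matplotlib.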

Additional observations from a re-analysis of the deposited data

Results flagged for a closer look

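Of 190 sets of values, 38 members in each of 5 groups of 5 or 6 wells, 11 had 1 array far from the others, where its gap to the nearest array took up most of the group's range. Chance flags about 1 in 20 such sets. All values are log2 levels relative to the array median. With RA at 40 h, PFKM in replicate 2 was low at -1.23 and IDH1 in replicate 5 was high at 7.35. With TNF, replicate 2 was low for SLC2A1 at 2.43, for PDK2 at -1.90 and for PDK4 at -4.57, replicate 3 was low for PC, pyruvate carboxylase, at -1.61, and replicate 4 was high for IDH1 at 6.60. In vehicle wells at 16 h, replicate 5 was low for SLC2A3 at -2.80 and replicate 1 was low for ALDOA at 7.47 and for PGK1 at 7.39. In vehicle wells at 40 h, replicate 3 was low for PFKFB3 at 2.24. TNF replicate 2 carried 3 of the 11; without it the log2 fold change of PDK4 with TNF was -2.33 and stayed called.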

How the results depend on the processing

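Of 32 member calls, 28 held under all 3 other scalings, and no call changed direction under any alternative run. Of the same 32, 15 were lost with the mean of all probe sets, 10 with no intensity trend, 7 with a replicate block and 6 with no filter. Of 21 calls at 40 h, 11 were lost with array set 1 alone, 7 with set 2 alone and 10 with no array set covariate. Of 11 calls in the time course, 4 were lost with vehicle at 16 h alone. The counts below can also hold members not called as deposited. The count of members called with RA at 40 h (2) was 1 with array set 2 alone, the mean of all probe sets or no array set covariate. It was also 1 with no filter, no intensity trend or a replicate block. Calls over all genes, 347 higher and 171 lower as deposited, were in that order 542 and 77, 232 and 88, and 168 and 58. They were then 314 and 150 (of 19775 genes), 265 and 113, and 299 and 146. With array set 1 alone the member count was 2, but as 1 higher and 1 lower, beside 131 higher and 118 lower of all genes. With TNF (9) the member count was 4 with array set 1 alone or no covariate. Calls over all genes, 834 higher and 570 lower as deposited, were then 399 and 249, and 391 and 261. With RA plus TNF (7) the member count was 4 with array set 1 alone and 3 with no covariate. It was 11 with arrays centred on the tested genes and 14 with quantile normalization. Calls over all genes, 1450 higher and 924 lower as deposited, were in that order 917 and 431, 757 and 545, 1660 and 1681, and 1511 and 1883. Against TNF (3) the member count was 5 centred, 6 with quantile normalization and 5 with recovered signals. Calls over all genes, 570 higher and 336 lower as deposited, were then 800 and 728, 807 and 763, and 828 and 785. For the interaction (0) the member count was 2 under each of these scalings. Calls over all genes, 33 higher and 20 lower as deposited, were then 91 and 72, 108 and 81, and 110 and 78. At 2 h (1) the member count was 0 with no trend, a replicate block or vehicle at 16 h alone. Calls over all genes, 106 higher and 3 lower as deposited, were then 65 and 5, 53 and 0, and 76 and 1. At 6 h (5) the member count was 1 centred, with no filter, no trend, quantile normalization, recovered signals or a replicate block. It was 2 with the mean of all probe sets or vehicle at 16 h alone. Calls over all genes, 1034 higher and 22 lower as deposited, were in that order 315 and 156, 822 and 27 (of 19775 genes), and 538 and 22. They were then 306 and 169, 339 and 158, 366 and 5, 520 and 14, and 509 and 10. Leaving out 1 array gave member counts of 1 to 3 with RA, 6 to 9 with TNF and 7 to 11 with both. They were 3 to 3 against TNF and 0 to 1 for the interaction. In the time course they were 0 to 2 at 2 h and 1 to 8 at 6 h. Later they were 1 to 3 at 16 h and 1 to 4 at 40 h. The cause was not tested. Replicate numbers gave no sign of pairing: arrays of the same number correlated at -0.092 to 0.076 over 30 pairs, those of different numbers at -0.084 to 0.092. These were deviations from means of 2 or 3 wells, which ties the values to each other. They cannot show that the wells were unpaired. PDK4, HK3, PC, PFKM and ENO2 lie near or below the array median in some groups, where the size of a change is uncertain.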

Other observations

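Lists of neighbouring pathways held further calls, given here by list and count. Of 5 tested genes of the citrate and succinate branch, SUCNR1 rose with RA by 1.37 ± 0.40 (adjusted p = 0.039), where 4.18% of all genes were called. GOT1 rose with TNF by 0.81 ± 0.25 (adjusted p = 0.0315), where 11.3% were. It also rose with RA plus TNF by 0.73 ± 0.25 (adjusted p = 0.0379), where 19.1% were. The groups were apart for GOT1 with TNF and overlapped in the other 2 cases. Of 7 tested pentose phosphate genes, 2 rose and 1 fell with TNF, where 11.3% of all genes were called, and 3 rose with RA plus TNF, where 19.1% were. PGD, the second dehydrogenase of the branch, rose by 0.62 ± 0.17 with TNF (adjusted p = 0.0093) and by 1.36 ± 0.17 with RA plus TNF (adjusted p = 5.48e-08), and H6PD, the dehydrogenase of the endoplasmic reticulum, fell by 0.94 with TNF (SE 0.18, adjusted p = 2.41e-04). Of 7 glycogen genes, GBE1, the branching enzyme, and PYGL, a phosphorylase, fell with RA plus TNF, by 0.82 and 0.54 on the log2 scale. In that comparison 19.1% of all genes were called and 7.45% were lower. The groups overlapped for PYGL and not for GBE1. No glycogen gene was called with RA or TNF alone by limma. Of 13 genes of fatty acid oxidation and its regulators, 1 rose and 1 fell with RA, where 4.18% of all genes were called. With TNF 1 rose and 2 fell, where 11.3% of all genes were called. With RA plus TNF 3 rose and 1 fell, where 19.1% were. CPT1A, which admits fatty acids to mitochondria, fell by 0.82 with RA, 1.21 with TNF and 2.00 with RA plus TNF, and PPARG, a lipid-sensing receptor, rose by 1.90 with RA and by 1.90 with RA plus TNF. NR3C1, the glucocorticoid receptor, rose by 0.55 with TNF and 0.74 with RA plus TNF, ACADM, the medium-chain dehydrogenase, fell by 0.56 with TNF, and PPARD rose by 0.58 with RA plus TNF. The groups overlapped in these comparisons of NR3C1, ACADM and PPARD, and for CPT1A with RA and with TNF. They were apart for CPT1A with RA plus TNF and for PPARG in both comparisons.

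Of 15 hypoxia-linked genes outside glycolysis, 1 rose and none fell with RA, where 4.18% of all genes were called. With TNF, 1 rose and 2 fell, where 11.3% of all genes were called. With RA plus TNF, 4 rose and 3 fell, where 19.1% were. NDRG1, a hypoxia-induced gene, rose by 2.78 ± 0.18 with RA (adjusted p = 4.82e-14) and by 1.73 ± 0.22 after 2 h (adjusted p = 8.09e-06). VEGFA, a vascular growth factor, rose by 2.59 ± 0.33 with TNF (adjusted p = 3.36e-07). EPAS1, a hypoxia-inducible factor subunit, fell by 1.49 with TNF (SE 0.17, adjusted p = 3.68e-08), and its interaction of RA with TNF was 1.06 ± 0.25 (adjusted p = 0.037). ARNT, the partner of these factors, fell by 0.68 with TNF (SE 0.17, adjusted p = 0.00634). The rises with RA plus TNF were NDRG1 (2.77 ± 0.18, adjusted p = 7.88e-15), VEGFA (2.56 ± 0.33, 1.62e-07), BNIP3L, a mitophagy receptor (0.78 ± 0.18, 0.00116), and HIF1A, the other such subunit (0.64 ± 0.16, 0.00305). The falls were ARNT (-0.57 ± 0.17, 0.0176), EGLN1, an oxygen-sensing hydroxylase (-0.65 ± 0.17, 0.00453), and KDM3A, a histone demethylase (-0.53 ± 0.16, 0.018).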
